A study of Mus musculus with 12 samples.

Results

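Transcripts of T cells were followed array by array in pancreatic islets of lean and obese mice with and without PPARγ2. The members were 34 genes that T cells are known for, grouped by role into the T cell receptor complex, its co-receptors, surface molecules, proximal signalling, transcription factors, and cytokine receptors with a membrane protein. Each gene was represented by the probe with the highest mean signal over the 12 arrays. A probe was found for 33 of the 34 genes, among 17305 named genes in all, and no probe carried the accession of Cd8b1, which is therefore named only. The list came from knowledge of T cells and not from the values of a contrast, although it was drawn up with earlier results of these arrays known. The study itself named 1 member, Rasgrp1, on these samples, among genes that it reports as not increased in POKO vs. WT.

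RNA had been taken from isolated islets of female mice of 4 genotypes on a mixed C57BL/6 x Sv129 background and a chow diet, with 3 arrays for each genotype. WT mice carried neither mutation, PPARγ2KO mice lacked the γ2 isoform of the nuclear receptor PPARγ, ob/ob mice lacked leptin, and POKO mice, labelled as the double knockout, combined the ob/ob mutation with the loss of PPARγ2. The labels give an age of 4 weeks, which differs from the age in the study's text. Each array held a pool of several mice, per the study's methods, and nothing further shows how separate the pools were, so p-values measure the spread between these pools.

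T cells recognise peptides through the T cell receptor, whose signal is carried into the cell by the CD3 chains and the ζ chain encoded by Cd247. The kinase Lck, brought close by the co-receptors CD4 and CD8, phosphorylates these chains, Zap70 docks on them, and the scaffold Lat then gathers the downstream enzymes. Islets of healthy mice hold few lymphocytes, while lymph nodes lie against the pancreas and T cells enter islets in autoimmune diabetes.

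The islet hormones were bright on every array, with a group mean log2 signal of Ins1 of 17.62 in WT and 18.54 in ob/ob, and so was Cpa1, an acinar enzyme, at 17.89 in WT and 17.94 in ob/ob. Pparg, read by a probe shared with the other isoform, lay between 6.41 and 7.44 on the 6 arrays of mice without PPARγ2 and between 8.54 and 9.77 on the 6 others. The probe of Lep was not well above background on any array and checks nothing. The share of spots that the scanner software set well above background was 54.3% to 57.5% on the WT arrays, 57.1% to 60.9% in PPARγ2KO, 60.4% to 64.9% in ob/ob and 61.4% to 61.5% in POKO, and the part of this in the results below was not tested.

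Before the comparisons, 2 arrays must be named, because the T cell genes were at odds there with the rest of their group. PPARγ2KO 2 had the highest value of its group for 28 of 33 members and POKO 2 the lowest of its group for 28 of 33. The mean log2 signal over the 33 members was 3.50, 3.63 and 3.69 on the WT arrays and 3.86, 5.85 and 3.88 on the PPARγ2KO arrays. It was 5.64, 5.85 and 6.94 on the ob/ob arrays and 6.53, 5.02 and 6.31 on the POKO arrays. PPARγ2KO 2 thus lay within the ob/ob range and the other PPARγ2KO arrays just above WT, while ob/ob 3 was the highest of all 12 arrays for 25 members. The number of members well above background showed the same split, with 9 to 12 on the WT arrays, 12, 25 and 17 on the PPARγ2KO arrays, 28 to 32 on the ob/ob arrays and 26 to 30 on the POKO arrays. In bulk islet RNA, more T cells and more RNA of these genes per cell cannot be told apart.

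**Figure D1:**
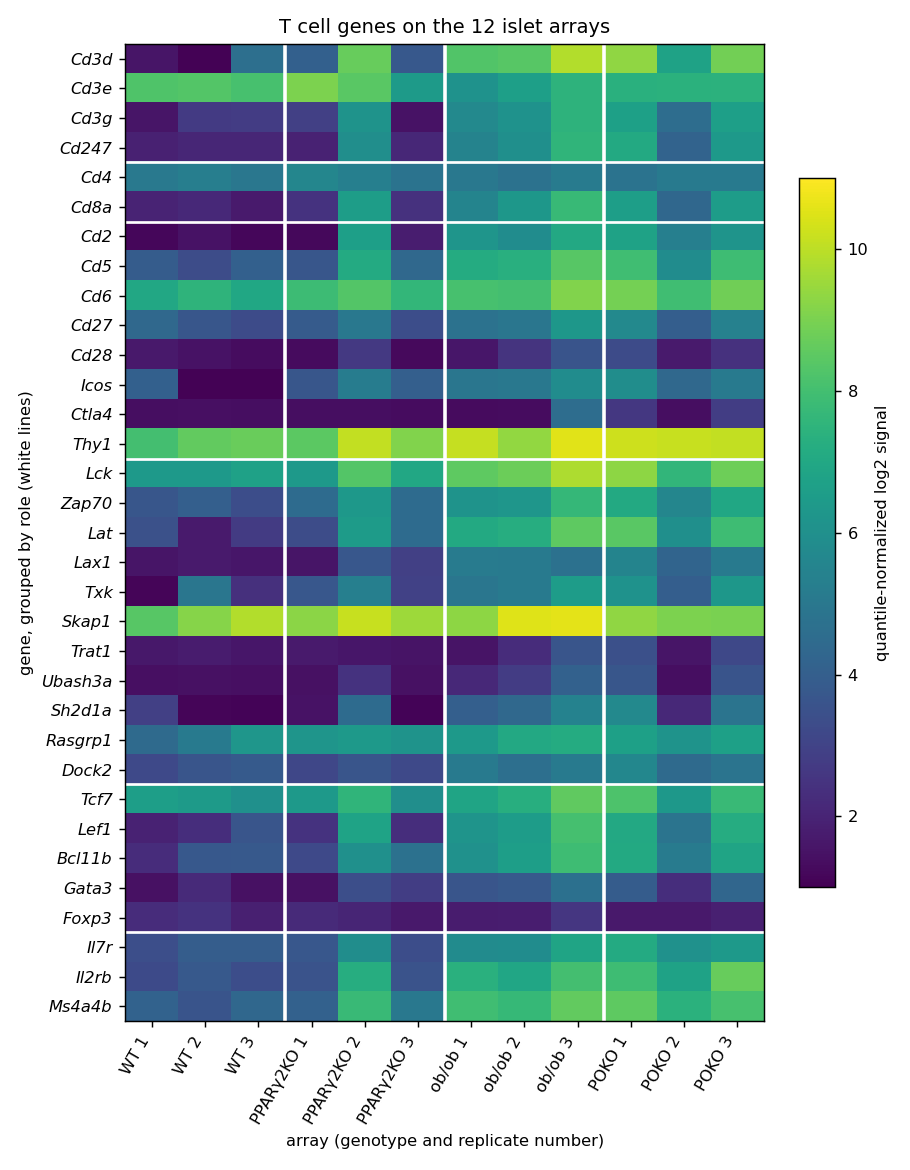
Normalised log2 signal of the 33 T cell genes with a probe (rows, by role) on each of the 12 arrays (columns, by genotype and replicate), with the colour giving the log2 level and white lines between genotypes and roles. Most rows are low on the WT arrays, PPARγ2KO 1 and PPARγ2KO 3 and high on the ob/ob arrays, the POKO arrays and PPARγ2KO 2. Several rows do not follow that pattern, among them Cd3e, Cd4, Foxp3 and Skap1.

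The genes of the CD3 chains stand side by side on mouse chromosome 9, and their upstream sequence is shown here. The signals of Cd3g and Cd3d moved together and that of the only Cd3e probe did not. Any part of the sequence in this was not tested. Cd3g and Cd3d are transcribed away from each other with 1337 bases between them, and Cd3e follows 11682 bases beyond Cd3d. The stretches below are the upstream part of RefSeq's promoter entries in GRCm38.p6, at chr9:44980484-44980681 on the minus strand for Cd3g, chr9:44981536-44981733 on the plus strand for Cd3d and chr9:45009664-45009861 on the minus strand for Cd3e. All 3 lie upstream of their gene and inside no other annotated gene. Capitals mark matches, on either strand, to motifs of factor families known from T cells.
Cd3g: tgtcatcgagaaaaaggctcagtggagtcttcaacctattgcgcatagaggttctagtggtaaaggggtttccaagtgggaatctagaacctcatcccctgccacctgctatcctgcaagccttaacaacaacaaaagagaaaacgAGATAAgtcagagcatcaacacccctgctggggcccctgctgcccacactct
Cd3d: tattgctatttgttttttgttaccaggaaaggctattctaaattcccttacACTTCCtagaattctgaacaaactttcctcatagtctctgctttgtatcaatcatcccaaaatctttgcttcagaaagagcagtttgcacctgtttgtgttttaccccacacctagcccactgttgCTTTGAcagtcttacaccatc
Cd3e: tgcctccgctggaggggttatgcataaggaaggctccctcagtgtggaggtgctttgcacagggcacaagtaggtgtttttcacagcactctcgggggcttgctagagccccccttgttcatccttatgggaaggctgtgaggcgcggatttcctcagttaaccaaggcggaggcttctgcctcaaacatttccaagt
The letters searched were GGAAGT for ETS factors, TGTGGT for RUNX, CTTTGA for TCF/LEF and, for GATA factors, AGATAA. Cd3g held 1 match, to GATA, Cd3d held 2, to ETS and TCF/LEF, and Cd3e held none. Among 32851 promoter windows of this length the ETS letters were found in 14.4%, RUNX in 11.4%, TCF/LEF in 11.7% and GATA in 8.34%. Of the 24 members with a promoter entry, 7 held ETS, 4 RUNX, 5 TCF/LEF and 3 GATA in any of their entries. As these counts are per gene and the shares per window, they cannot be set against each other directly. A match describes letters and is not evidence of binding.

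The T cell receptor complex was higher in ob/ob than in WT islets for 3 of its 4 genes, Cd3d, Cd3g and Cd247, and Cd3e did not follow them. Cd3d, the δ chain, had log2 signals of 1.58, 1.04 and 4.66 in WT, 4.07, 8.69 and 3.74 in PPARγ2KO, 8.28, 8.41 and 9.87 in ob/ob and 9.35, 6.78 and 8.87 in POKO. All ob/ob and POKO arrays were above all WT arrays, and PPARγ2KO 2 alone of its group reached the ob/ob level. The change in ob/ob vs. WT was 6.42 on the log2 scale (SE 1.42, n = 3, limma, adjusted p = 0.031). As only 1 of 3 WT arrays was well above background, that value depends on signals near background.

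Cd3g, the γ chain, read 1.57, 2.70 and 2.78 in WT, 2.88, 6.12 and 1.49 in PPARγ2KO, 5.72, 6.09 and 7.46 in ob/ob and 6.70, 4.58 and 6.65 in POKO. Cd247, the ζ chain, read 1.93, 2.09 and 2.08 in WT, 1.98, 5.94 and 2.10 in PPARγ2KO, 5.47, 5.98 and 7.56 in ob/ob and 7.06, 4.18 and 6.42 in POKO. On the WT arrays neither rose well above background, and both did on every ob/ob and POKO array and on PPARγ2KO 2. Set against the lowest signal that the WT arrays could tell from background, the ob/ob mean of Cd3g was at least 6.11-fold higher (limma, adjusted p = 0.046). For Cd247 the bound was at least 5.76-fold (limma, adjusted p = 0.041). Neither call held with the slide as a block. All later "at least" values were computed in the same way. The p-value beside a bound is that of the fitted difference, and no bound was itself tested. The other probes of Cd247, well above background on 3 and 0 arrays, were at 2.03 and -0.09 in ob/ob vs. WT and were not called.

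Cd3e, the ε chain, read 8.25, 8.33 and 8.08 in WT, 9.02, 8.45 and 6.44 in PPARγ2KO, 6.09, 6.65 and 7.46 in ob/ob and 7.34, 7.40 and 7.43 in POKO. Every ob/ob and POKO array was below every WT array, the opposite order from the other 3 chains. The difference in ob/ob vs. WT, -1.48 on the log2 scale (SE 0.58), did not pass the test (limma, adjusted p = 0.118). With array weights, and without PPARγ2KO 3, it was called lower. Groups that do not overlap in the lower direction were common, at 29.8% of all probes in this comparison. The gene has 1 probe, well above background on all 12 arrays. Its WT mean was 8.22, where Cd3d, Cd3g and Cd247 had WT means of 2.43, 2.35 and 2.03. Whether this probe read Cd3e of T cells was not tested.

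The co-receptors divided. Cd8a, which marks cytotoxic T cells, read 1.99, 2.17 and 1.74 in WT, 2.45, 6.55 and 2.44 in PPARγ2KO, 5.51, 6.28 and 7.74 in ob/ob and 6.60, 4.35 and 6.54 in POKO. The ob/ob level was at least 6.49-fold that of WT (limma, adjusted p = 0.037), with no WT array well above background, and was not called with the slide as a block. Cd4, which marks helper T cells and also some myeloid cells, read 5.05, 5.27 and 4.98 in WT, 5.60, 5.32 and 4.81 in PPARγ2KO, 5.01, 4.77 and 5.18 in ob/ob and 4.81, 5.10 and 5.13 in POKO. Its groups overlapped, and the difference in ob/ob vs. WT was -0.11 on the log2 scale (SE 0.20, limma, adjusted p = 0.732). Cd4 has 1 probe, well above background on all 12 arrays, and PPARγ2KO 2 did not stand out in it. Whether this probe read Cd4 of T cells was not tested. Of the Cd8a probes, the other 2 were 3.11 and 1.84 higher on the log2 scale in ob/ob vs. WT and did not pass the test.

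Of 8 surface molecules, Cd2, Cd5, Icos and Thy1 were called higher in ob/ob vs. WT, and none was called lower. Cd5, a brake on receptor signalling, read 3.90, 3.33 and 4.06 in WT, 3.68, 7.13 and 4.36 in PPARγ2KO, 7.17, 7.30 and 8.41 in ob/ob and 7.94, 5.87 and 7.89 in POKO. Cd2, an adhesion receptor also found on NK cells, read 1.19, 1.48 and 1.19 in WT, 1.20, 6.64 and 1.78 in PPARγ2KO, 6.20, 5.84 and 7.05 in ob/ob and 6.78, 5.30 and 6.19 in POKO. For both genes the ob/ob and POKO arrays were all above WT, and of the PPARγ2KO arrays only PPARγ2KO 2 was near them. The change in ob/ob vs. WT was 3.86 for Cd5 on the log2 scale (SE 0.88, limma, adjusted p = 0.032), and Cd2 was at least 5.87-fold higher (limma, adjusted p = 0.034). Thy1, a surface protein of T cells and of other cells, was bright on all 12 arrays and had a mean of 8.45 ± 0.37 (SD, n = 3) in WT and 10.02 ± 0.60 in ob/ob, a fold of 2.95. The costimulatory receptor Icos had 1 WT array well above background and differed by 3.19 on the log2 scale (SE 0.80). Cd6 (1.24, limma, adjusted p = 0.055) and Cd27 (1.56, adjusted p = 0.115) did not overlap between ob/ob and WT but were not called. The second probe of Cd6, well above background on 10 of the 12 arrays, had the opposite sign, at -0.25 (limma, adjusted p = 0.756). The costimulatory receptor Cd28 and the inhibitory receptor Ctla4 were well above background on 2 arrays and 1 array of the 12.

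Among 11 genes of proximal signalling, Lck, Zap70, Lat, Lax1, Rasgrp1 and Dock2 were called higher in ob/ob vs. WT. Lax1, a membrane adaptor that restrains signalling in T and B cells, read 1.57, 1.73 and 1.59 in WT, 1.58, 3.72 and 2.89 in PPARγ2KO, 5.18, 5.11 and 4.72 in ob/ob and 5.51, 4.24 and 5.09 in POKO. Its ob/ob and POKO arrays were above every WT and PPARγ2KO array. Relative to WT, the bound for Lax1 was at least 2.28-fold in ob/ob (limma, adjusted p = 0.015) and at least 2.19-fold in POKO (limma, adjusted p = 0.040). Lat, the scaffold behind Zap70, read 3.48, 1.72 and 2.75 in WT, 3.33, 6.49 and 4.48 in PPARγ2KO, 7.06, 7.24 and 8.53 in ob/ob and 8.44, 5.99 and 7.89 in POKO. The ob/ob level was at least 13.9-fold higher than WT (limma, adjusted p = 0.022), the highest bound among the members called. Zap70 was at least 7.38-fold higher (limma, adjusted p = 0.027).

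Lck was measured on every array, with a mean log2 signal of 6.51 ± 0.18 (SD, n = 3) in WT and 9.03 ± 0.66 in ob/ob, a fold of 5.71 (limma, adjusted p = 0.031). Rasgrp1, which activates Ras downstream of the receptor, had a mean of 5.25 ± 0.91 in WT and 6.85 ± 0.41 in ob/ob, a fold of 3.04 (limma, adjusted p = 0.039). The second probe of Rasgrp1 was well above background on 1 of the 12 arrays. Dock2, an activator of Rac in leukocytes, was at least 2.04-fold higher (limma, adjusted p = 0.028), with no WT array well above background. Its second probe, which was well above background on 7 of the 12 arrays, also passed (limma, adjusted p = 0.014). That probe differed by 4.59 on the log2 scale, against 1.37 for the brighter probe. Txk (2.72, limma, adjusted p = 0.113) and Skap1 (1.00, adjusted p = 0.151) had higher means in ob/ob without passing the test. The adaptors Trat1, Ubash3a and Sh2d1a were well above background on 1, 3 and 6 of the 12 arrays, and none was called.

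Of the transcription factors, Bcl11b and Gata3 were called higher in ob/ob vs. WT, and Tcf7, Lef1 and Foxp3 were not called. Bcl11b, which holds T cells to their lineage, read 2.28, 3.77 and 3.80 in WT, 3.19, 6.02 and 4.73 in PPARγ2KO, 6.07, 6.62 and 7.91 in ob/ob and 7.09, 5.17 and 6.84 in POKO, a difference of 3.58 in ob/ob vs. WT (SE 0.83, limma, adjusted p = 0.033). Gata3, needed for T cell development and helper cells, read 1.44, 2.18 and 1.44 in WT, 1.46, 3.41 and 2.83 in PPARγ2KO, 3.64, 3.80 and 4.69 in ob/ob and 3.91, 2.31 and 4.31 in POKO. Its fitted difference in ob/ob vs. WT was 2.36 on the log2 scale (limma, adjusted p = 0.042). The bound was only at least 1.17-fold, so that call depends on signals near background. For both genes all ob/ob and POKO arrays exceeded all WT arrays, Gata3 by a narrow margin in POKO 2. Lef1, a factor of naive T cells, had its ob/ob arrays at 6.17 to 8.06 and its WT arrays at 1.96 to 3.65, and lay just past the limit, at least 8.44-fold higher (limma, adjusted p = 0.0505) with no WT array well above background. Foxp3, the factor of regulatory T cells, was not well above background on any array.

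All 3 genes of the last group were called higher in ob/ob vs. WT. Ms4a4b, a membrane protein of T cells, read 4.14, 3.61 and 4.34 in WT, 4.11, 7.77 and 5.01 in PPARγ2KO, 7.95, 7.71 and 8.60 in ob/ob and 8.52, 7.38 and 8.09 in POKO. Il2rb, a receptor chain for interleukin 2 and interleukin 15 shared with NK cells, read 3.24, 3.78 and 3.37 in WT, 3.57, 7.22 and 3.56 in PPARγ2KO, 7.36, 6.91 and 8.02 in ob/ob and 7.90, 6.77 and 8.67 in POKO. In both, ob/ob, POKO and PPARγ2KO 2 stood clear of every WT array. Ms4a4b differed by 4.05 in ob/ob vs. WT (SE 0.79, limma, adjusted p = 0.025), and Il2rb was at least 12.3-fold higher (limma, adjusted p = 0.033). The interleukin 7 receptor Il7r, which naive and memory T cells depend on, was at least 4.70-fold higher (limma, adjusted p = 0.040). The second probe of Il7r, well above background on 2 arrays, was 1.35 higher and was not called. The other probes of Ms4a4b were 5.32, 6.17 and 1.98 higher, and the last of these was not called.

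Over the whole list, 30 of 33 members had a higher mean in ob/ob than in WT, 19 were called higher and none lower. The share of all 41174 probes called higher in that comparison was 3.56%, and 1.91% were called lower. Groups did not overlap in the higher direction for 26 members, against 11.3% of all probes. The median difference of the members was 2.51 on the log2 scale, and that of all probes was -0.08. With genes that no WT array measured set to their bound, the members' median was 1.60. Of the 19 genes called, 11 had no WT array well above background, 5 had some, and the 3 measured on all WT arrays, Thy1, Lck and Rasgrp1, had folds of 2.95 to 5.71.

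Each slide held all 4 genotypes, each genotype always at its own position, so that position and genotype cannot be told apart. The median difference of ob/ob from WT was 2.11, 1.95 and 3.21 on the 3 slides, with 27, 29 and 32 members higher. With the slide as a block, 12 members were called, with 3.41% of all probes called higher, and Cd3g, Cd247, Cd8a, Icos, Thy1, Gata3 and Il7r lost their call. The count was less steady than the values. It fell to 2 without WT 1, to 0 without WT 2, to 1 without ob/ob 2, to 1 without ob/ob 3, to 9 without POKO 1, to 12 without POKO 2 and to 6 without POKO 3, while the members' median stayed between 2.14 and 2.76. Without PPARγ2KO 2 the count was 20, with 3.91% of all probes called higher. For the other arrays left out, the share of all probes called is not reported here. Those falls therefore cannot be read as particular to the members. A normexp background correction of the raw intensities was run with an added offset of 50, which raises dim values. Under it 3 members were called and the median was 0.49. The median processed signal of the arrays was 20.9 to 40.6, so an offset of that size shrinks the log2 differences of dim genes. How much of the fall came from the offset was not tested, and the share of all probes called is not reported here.

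**Figure D2:**
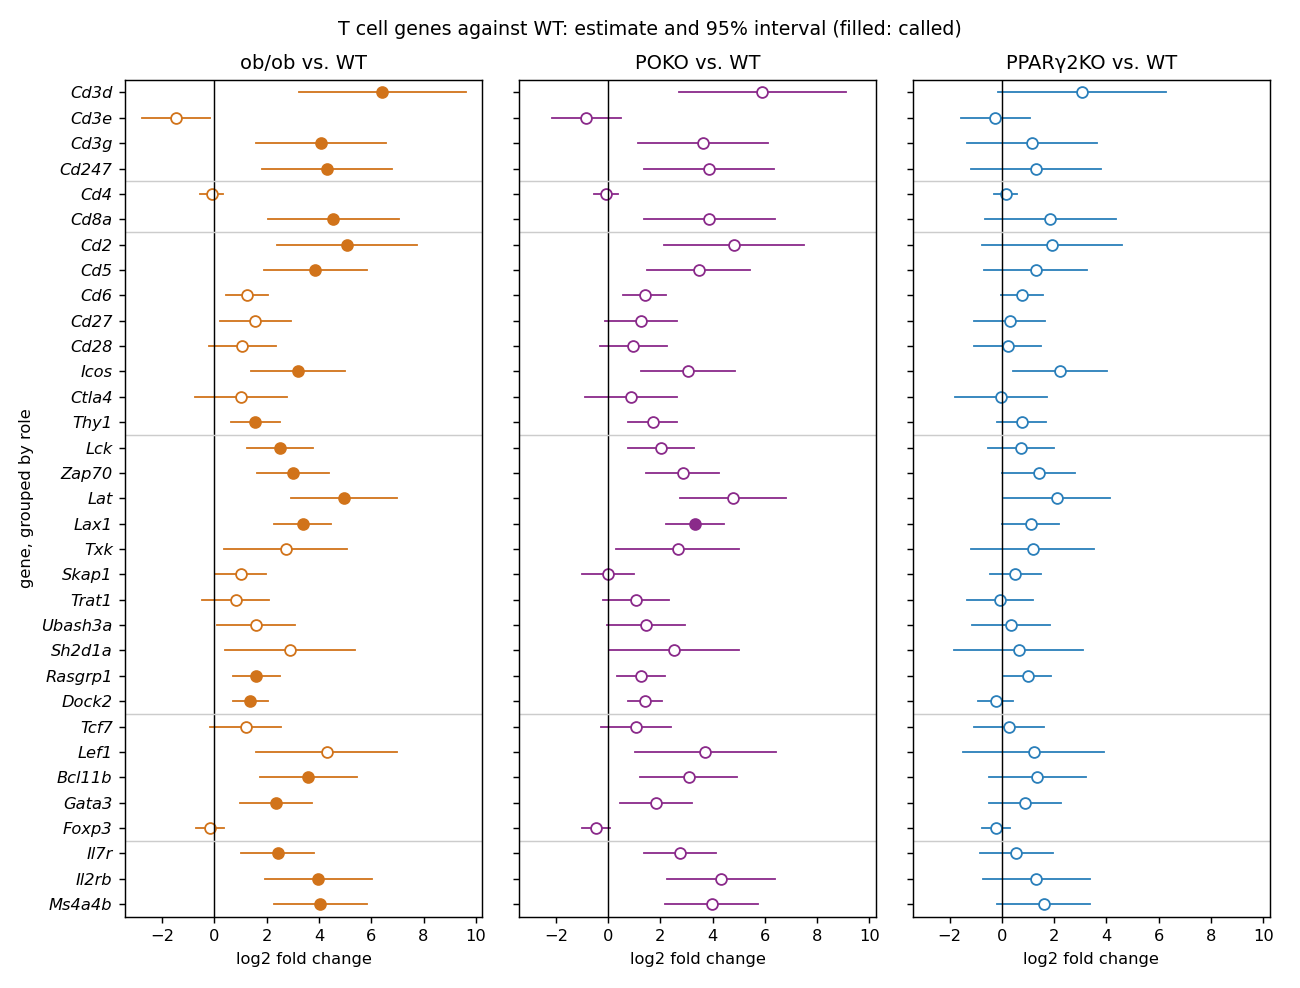
Fitted log2 fold change from WT (horizontal axis) of the 33 members (rows) in ob/ob, POKO and PPARγ2KO (panels), with lines for the 95% confidence interval. Filled points are genes called, 19 in ob/ob, 1 in POKO and 0 in PPARγ2KO, and all 3 panels use the same WT arrays.

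In POKO vs. WT, which shares its WT arrays with the comparison above, the T cell genes were mostly higher, and only Lax1 was called. By its second probe, which did not represent the gene, Dock2 passed there too (4.41 on the log2 scale, limma, adjusted p = 0.040). The mean was higher in POKO for 29 of 33 members, and 21 did not overlap in the higher direction, against 9.2% of all probes. The share of all probes called higher was 0.151% and lower 0.0219%, so few genes of any kind passed in this comparison. With no WT array well above background, Lat was at least 12.4-fold higher (limma, adjusted p = 0.074) and Il2rb at least 15.7-fold (limma, adjusted p = 0.088). With 1 WT array well above background in each, Cd3d differed by 5.90 on the log2 scale (SE 1.42, limma, adjusted p = 0.111) and Ms4a4b by 3.96 (SE 0.79, adjusted p = 0.084). Cd3e differed by -0.83 without passing the test and lay below every WT array, as 25.5% of all probes did, and Skap1 differed by -0.00462. The members' median was 2.53 on the log2 scale, 1.70 with bounds in place, and that of all probes was -0.08. Within the 3 slides the medians were 2.82, 1.19 and 2.87.

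The count in POKO vs. WT turned on an array of another genotype, through the spread that all groups share. Without PPARγ2KO 2, the fitted differences were the same and 11 members were called, namely Cd3d, Cd8a, Cd2, Cd5, Thy1, Zap70, Lat, Lax1, Il7r, Il2rb and Ms4a4b, with 1.25% of all probes called higher. With each array weighted by its agreement with its group, 20 were called, with 3.4% of all probes called higher. With the slide as a block none was called, with 0.0146% of all probes called higher. Without PPARγ2KO 1 the count was 3 and without WT 3 it was 2, and it was 0 without any 1 of WT 1, WT 2, the ob/ob arrays or the POKO arrays. The shares of all probes called in these refits are not reported here, so the counts describe the members only.

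In PPARγ2KO vs. WT no member was called, as no probe of the array was (0% in each direction). At an unadjusted p under 0.05 limma gave 4 members, Icos, Zap70, Lat and Rasgrp1, against 9.37% of all probes. The mean was higher in PPARγ2KO for 28 members, with a median of 0.88 on the log2 scale. That median came from PPARγ2KO 2. Within the slides it was 0.05, 1.93 and 0.05, and without PPARγ2KO 2 it was 0.20, with no member and 0.0437% of all probes called higher. The array also held B cell genes at a mean log2 signal of 6.49, where the other PPARγ2KO arrays had 2.88 and 3.34, and genes of all leukocytes at 9.25, where they had 6.05 and 6.70. The part of other cells in the T cell values of this array was not tested.

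Against PPARγ2KO, the obese groups had higher values for most members, and no member was called. In ob/ob vs. PPARγ2KO 31 members had a higher mean, with a median of 1.60, and 17 had an unadjusted p under 0.05 by limma, against 19.3% of all probes. The share of all probes called was 0.00243% in each direction there. In POKO vs. PPARγ2KO 29 had a higher mean, with a median of 1.44, and 12 had an unadjusted p under 0.05, against 11.1% of all probes, and 0.00486% of all probes were called higher and 0% lower. The smallest adjusted p in both belonged to Dock2, at 0.080 and 0.152. Without PPARγ2KO 2, Cd2, Lax1, Il7r, Il2rb and Ms4a4b were called in each of these comparisons, with 0.578% of all probes called higher in ob/ob vs. PPARγ2KO and 0.425% in POKO vs. PPARγ2KO. On slide 2, which held PPARγ2KO 2, the median was -0.06 for ob/ob and -0.85 for POKO against PPARγ2KO.

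Whether loss of PPARγ2 changed the T cell genes of obese mice is asked by POKO vs. ob/ob. No member was called, and 1 of all 41174 probes was called higher (0.00243%). The mean was higher in POKO for 8 of 33 members, the median was -0.16 on the log2 scale, and the groups overlapped for every member, where 8.76% of all probes lay apart in the higher and 8.93% in the lower direction. Skap1, an adaptor of integrin activation, was the only member with an unadjusted p under 0.05, against 9.28% of all probes, at -1.01 (SE 0.43, limma, adjusted p = 0.533). The intervals were wide, from -3.73 to 2.69 for Cd3d, -3.18 to 1.83 for Cd8a, -2.20 to 1.86 for Lat and -1.74 to 0.79 for Lck. Thy1 (-0.79 to 1.07) and Cd4 (-0.42 to 0.48) were the tighter cases.

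The 3 slides did not give POKO vs. ob/ob the same sign. On slide 1 POKO exceeded ob/ob for 31 of 33 members, with a median of 0.93. On slide 2 it did so for 5 members, with a median of -0.87, and on slide 3 for 2 members, with a median of -0.64. Without POKO 2 the median was 0.29 and without POKO 1 it was -0.51. No member was called under any alternative.

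**Figure D3:**
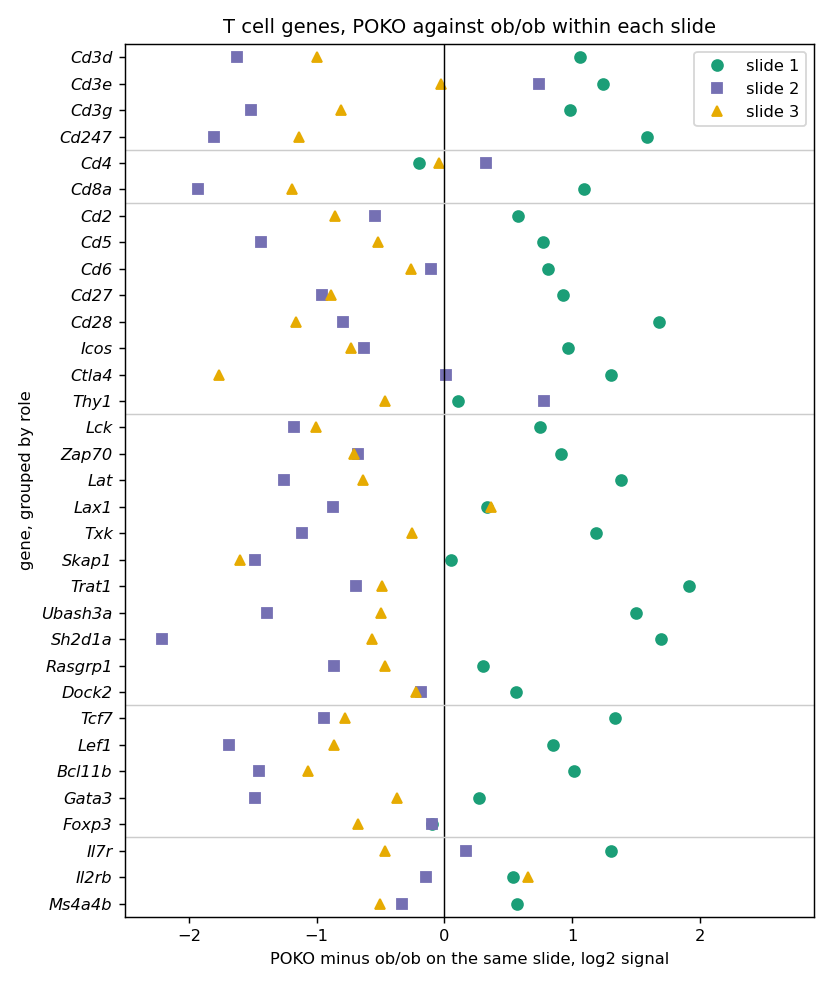
Difference in log2 signal between POKO and ob/ob within each of the 3 slides (points) for the 33 members (rows), with a shape for each slide. Points of slide 1 lie mostly to the right of 0 and those of slides 2 and 3 mostly to the left.

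The interaction, which asks whether loss of PPARγ2 acted otherwise in obese than in lean mice, was called for no member and no probe. The members' median was -1.22 on the log2 scale, and -0.43 without PPARγ2KO 2. By limma Skap1 (-1.52, adjusted p = 0.319) and Rasgrp1 (-1.33, adjusted p = 0.344) had an unadjusted p under 0.05, against 13.9% of all probes. Group means ran WT, PPARγ2KO, POKO, ob/ob from low to high for 22 of 33 members, and for 16 without PPARγ2KO 2, though POKO and ob/ob did not differ beyond their spread.

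Other genes of T cells were counted in ob/ob vs. WT from lists fixed by role. Of 33 further genes of receptor signalling, 10 were called higher and none lower, among them Pik3cd, a lipid kinase subunit of leukocytes, at 3.27 and Vav1, an exchange factor for Rac, at 1.77 on the log2 scale. Widely expressed members such as Grb2 (0.23), Csk (0.21) and Nfatc3 (-0.04) were not called. Of 8 genes of naive and lymph node homing T cells, 5 were called higher. Among them were the chemokine receptor Ccr7 at 3.06, S1pr1 at 1.22, Dapl1 at 2.84 and Satb1 at 2.27 on the log2 scale. Klf2 (-0.44) was not called, nor was Actn1, whose ob/ob arrays at 8.61 to 9.47 lay below its WT arrays at 9.95 to 10.03 (limma, adjusted p = 0.063).

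Of 18 effector genes, 2 were called higher in ob/ob vs. WT, and 7 without PPARγ2KO 2. The 2 were the chemokine receptor Cxcr3 at least 2.79-fold and the costimulatory receptor Tnfrsf9 by 1.61 on the log2 scale. Tnfrsf9 was also called in POKO vs. WT, at 2.04. The cytokines Il2, Il4, Il17a and Il21 were not well above background on any ob/ob or WT array, while Ifng had that flag on 2 of 3 ob/ob arrays and on no WT array. Of 8 thymocyte genes none was called, 2 of them having an unadjusted p under 0.05 by limma, against 31.1% of all probes, and the recombinase gene Rag1 was well above background on 1 ob/ob array.

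Markers of B cells and of all leukocytes were also higher in ob/ob than in WT. Of 11 B cell genes 7 were called higher in ob/ob vs. WT, with Cd79b at 5.71 on the log2 scale and Ms4a1 at least 19.6-fold. The mean log2 signal of the B cell list lay between 3.00 and 3.15 on the WT arrays, 2.88 and 6.49 in PPARγ2KO, 5.65 and 6.75 in ob/ob and 5.50 and 6.66 in POKO. Within the obese groups the B and T cell lists did not run in step. The B cell mean was 6.75, 6.47 and 5.65 on ob/ob 1, 2 and 3 and 6.66, 5.96 and 5.50 on POKO 1, 2 and 3, so that ob/ob 3, the highest of its group in T cell genes, was the lowest in B cell genes. The summed linear signal of the B cell list was 133 to 150 in WT and 1563 to 4489 in ob/ob. Of 8 genes of all leukocytes 6 were called, with Ptprc, which encodes CD45, at 4.37, and the list had means of 6.05 to 6.52 in WT and 9.34 to 9.82 in ob/ob. Their part in the T cell differences was not tested.

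Of 10 macrophage and dendritic cell genes, C1qa was called (1.34) and Adgre1 and Csf1r were not (0.42 and 1.08), with list means of 5.47 to 6.15 in WT and 6.05 to 6.90 in ob/ob. This list did not run in step with the T cell genes within the obese groups. Its mean was 6.90, 6.09 and 6.05 on ob/ob 1, 2 and 3 and 7.02, 7.30 and 6.52 on POKO 1, 2 and 3. POKO 2, the lowest of its group in T cell genes, was thus the highest here. Of 10 NK cell genes 1 was called, Gzmb, a granzyme that cytotoxic T cells also make, and 5 were without PPARγ2KO 2. Mean log2 signals in WT and ob/ob were 1.64 and 5.94 for the receptor Klrd1, 3.90 and 6.68 for Nkg7, 1.55 and 4.21 for the perforin gene Prf1 and 2.30 and 4.47 for the granzyme gene Gzma. None of these 4 overlapped between the groups and none was called (limma, adjusted p 0.055 to 0.098), and cytotoxic T cells also express them. The receptors Ncr1, Klrb1c and Klra8 had no WT or ob/ob array well above background. Of 7 genes of lymph node stroma none was called, with 5 at an unadjusted p under 0.05 by limma, against 31.1% of all probes. Glycam1, made by the venules through which lymphocytes enter lymph nodes, had a mean of 1.23 in WT and 6.09 in ob/ob (limma, adjusted p = 0.051), and the chemokine Ccl19 5.12 and 8.15 (adjusted p = 0.069). Whether tissue beside the islets contributed to the T cell values was not tested. Of 9 beta cell genes 1 was called, Nkx6-1, and of 9 acinar genes none, with 1 at an unadjusted p under 0.05 by limma. Of 6 duct genes 2 were called lower, Krt19 (-1.57) and Cftr (-1.33). Of 4 erythroid genes 2 were called higher, Hba-a1 (3.07) and Alas2 (2.83), and of 5 endothelial genes, all with a higher mean in ob/ob, Cdh5 was called (1.17). Their part in the T cell values was not tested.

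**Figure D4:**
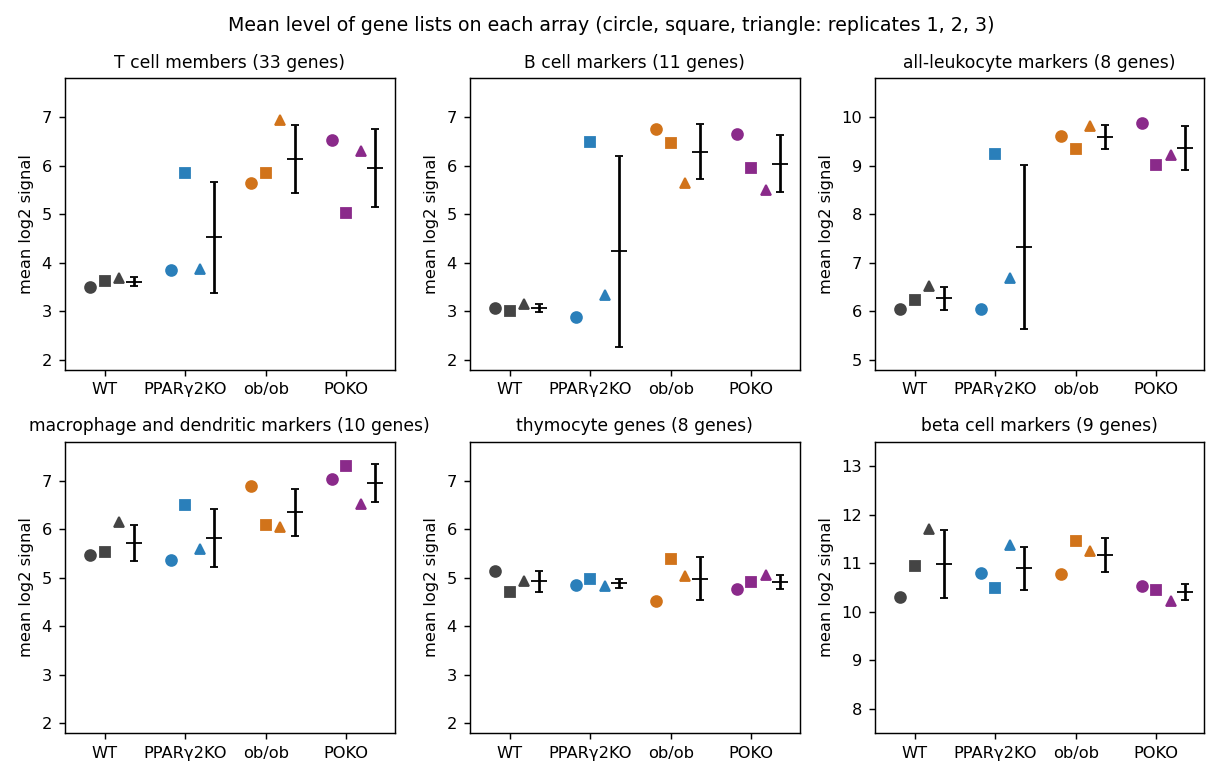
Mean normalised log2 signal of the T cell genes and of marker lists of other cells on each array (points, by genotype), with bars for the group mean and SD of 3 arrays. T cell, B cell and all-leukocyte genes are low in WT, high in ob/ob and POKO and split in PPARγ2KO, where only PPARγ2KO 2 is high, while the beta cell list overlaps between WT and ob/ob.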

How the data were processed

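Total RNA from pooled islets was labelled with Cy3 and hybridised to 12 mouse whole-genome arrays of Agilent (4x44K, 1 colour), 3 for each genotype. Before deposit, per the file headers, Agilent Feature Extraction 10.1.1.1 read each spot and subtracted a background, which gave the deposited processed signal, an intensity that was not normalised between arrays. The deposited value table of the series holds log2 values on the same scale after quantile normalisation by the authors and was used only as an alternative.

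With limma 3.58.1 (R 4.3.3; tables read by the package data.table, version 1.17.8), control spots were left out, 919 spots with an outlier flag were set to missing, the processed signal of the 12 arrays was quantile normalised and taken to log2, and spots of a probe were averaged. A fit with genotype alone (lmFit, eBayes) covered all 41174 probes and 12 arrays, with Benjamini-Hochberg adjustment over all probes. A gene was called at an adjusted p of 0.05 or less and an absolute log2 difference of 1 or more. The interaction needed the adjusted p alone. "Well above background" is the scanner software's flag. Where no array of the dimmer group had that flag, "at least" folds set the brighter mean against the dim group's mean of, per array, the higher of the lowest flagged signal and the probe's own. Accessions were named through RefSeq tables (GRCm38.p6), which also gave the promoter sequences. Figures were drawn with matplotlib 3.10.9.

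Groups came from the labels. Replicate numbers matched slides per the file headers (slides 1 to 3 held replicates 1 to 3), and deviations from the group mean correlated between -0.13 and 0.18 for same-numbered arrays, so the slide was kept out of the main fit and used as a block in an alternative. The genes given array by array were the receptor complex, the co-receptors, the 2 genes of each other role with the smallest p in ob/ob vs. WT, and any called in another comparison. The members and lists were chosen with earlier results of these data known. The code was tested on simulated data. The number of arrays limits the precision. The methods mention a smaller sample size in 1 unnamed group, while all 12 arrays were used here. Other background corrections, scalings, filters, probe rules, array weights, the slide block and leaving out each array were tried. Some genes of the lists are counted but their values are not reported here.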

Additional observations from a re-analysis of the deposited data

How the results depend on the processing

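Differences were steadier than counts of calls. No called difference changed sign. Cd3e was called lower in ob/ob vs. WT under 2 alternatives, array weights and leaving out PPARγ2KO 3. The POKO vs. ob/ob median, -0.16, was 0.29 without POKO 2, and in ob/ob vs. WT the uncalled differences of Cd4 (-0.28 to 0.14), Foxp3 (-0.43 to 0.12) and Ctla4 (-0.07 to 1.58) took both signs over the alternatives. Each median difference of the 6 comparisons was set against the SD of its own 3 within-slide medians. It moved by no more than that under all alternatives but normexp with its offset of 50. There the ob/ob vs. WT median was 0.49 and the POKO vs. WT median 0.37. That SD is wide where slides disagree, as in PPARγ2KO vs. WT (0.05, 1.93 and 0.05) and POKO vs. ob/ob (0.93, -0.87 and -0.64). The PPARγ2KO vs. WT median thus counted as kept at 0.20 without PPARγ2KO 2, against 0.88, as did the change to 0.29 above. In ob/ob vs. WT 19 members were called, 3 with normexp, 8 when only the groups compared were fitted, 12 with the replicate block (slide), and 0 to 20 when 1 array was left out, where 0 came without WT 2 and the median ranged from 2.14 to 2.76. In POKO vs. WT 1 member was called, 7 with a 75th percentile shift, 0 with normexp, 8 after a filter that asked for every array of a genotype above background, 6 with only the groups compared, 0 with the replicate block, 20 with array weights, 4 when the probes of a gene were averaged and 0 to 11 when 1 array was left out (median 1.79 to 2.99). In POKO vs. PPARγ2KO none was called, 1 at the looser adjusted p limit of the study and 0 to 5 when 1 array was left out. In ob/ob vs. PPARγ2KO none was called, 2 after the filter, 1 with array weights and 0 to 5 when 1 array was left out. Leaving out PPARγ2KO 2 and POKO 2 together, chosen after seeing the data, gave 15 members in POKO vs. WT, 9 in POKO vs. PPARγ2KO and 10 in ob/ob vs. PPARγ2KO. Where no share of all probes is given here or above, a count cannot be read as particular to the members. In POKO vs. WT the share called higher rose from 0.151% to 1.25% when PPARγ2KO 2 alone was left out. The replicate block left the counts in PPARγ2KO vs. WT, POKO vs. ob/ob, POKO vs. PPARγ2KO, ob/ob vs. PPARγ2KO and the interaction at 0. Under no alternative was a member called in PPARγ2KO vs. WT, POKO vs. ob/ob or the interaction. Why the counts moved was not tested, apart from the shared spread named above. Signal over background limits 18 members, which no WT array measured.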
